A study of Homo sapiens with 6 samples.

Results

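The EGF receptor gene EGFR and the genes of 7 ligands, HBEGF, TGFA, AREG, EREG, EPGN, BTC and NRG1, were followed by RNA sequencing in MDA-MB-231 cells. The members were the rows of the deposited table that carried these gene symbols, and all 8 were found among its 17100 transcripts. MDA-MB-231 is an established triple-negative breast cancer cell line of mesenchymal type. The 3 guadecitabine libraries came from cells that received 1 µM guadecitabine (SGI-110), a DNA methyltransferase inhibitor, for 96 h and stayed drug-free for 24 h before harvest. The 3 vehicle libraries came from the same line without the drug, and the study's methods give RNA of independent experiments as the source of the replicates. The comparison asked how transcript levels differed between the treated and the vehicle cells in 1 cell line, at 1 dose and 1 time.

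EGFR is a receptor tyrosine kinase of the cell surface that pairs with itself or with its relatives ERBB2, ERBB3 and ERBB4 when a ligand binds, and signals through RAS and ERK among other routes. Its ligands are made as membrane-anchored precursors, and metalloproteases such as ADAM17 and ADAM10 cut them free. EGFR is abundant in many triple-negative breast cancers, where cells often make their own ligands. NRG1, a neuregulin, belongs to the same ligand family but binds ERBB3 and ERBB4 instead of EGFR.

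The results below turn on EPGN, HBEGF and EREG, which rose, and on AREG, which lies beside EREG and did not pass the test. The 250 bases upstream of the start that the deposited table gives are printed for these 4 genes, 5′ to 3′ on the strand of the gene, because the drug acts on DNA methylation and CG pairs are where it occurs. They were read from GRCh37, the assembly also called hg19, and capitals mark each CG. DNA methylation was not measured in the files analysed here. The windows lie at chr4:75173937-75174186 on the plus strand for EPGN, chr5:139726189-139726438 on the minus strand for HBEGF, chr4:75230610-75230859 on the plus strand for EREG and chr4:75310565-75310814 on the plus strand for AREG.
EPGN: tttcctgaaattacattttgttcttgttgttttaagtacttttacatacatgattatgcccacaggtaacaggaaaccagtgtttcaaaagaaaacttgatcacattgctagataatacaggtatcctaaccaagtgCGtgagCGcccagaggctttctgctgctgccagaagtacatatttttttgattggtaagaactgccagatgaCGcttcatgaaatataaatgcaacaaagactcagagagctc
EREG: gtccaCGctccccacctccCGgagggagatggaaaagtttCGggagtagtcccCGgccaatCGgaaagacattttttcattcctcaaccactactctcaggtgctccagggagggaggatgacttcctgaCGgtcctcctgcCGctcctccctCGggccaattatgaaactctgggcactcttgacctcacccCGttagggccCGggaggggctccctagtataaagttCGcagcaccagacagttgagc
AREG: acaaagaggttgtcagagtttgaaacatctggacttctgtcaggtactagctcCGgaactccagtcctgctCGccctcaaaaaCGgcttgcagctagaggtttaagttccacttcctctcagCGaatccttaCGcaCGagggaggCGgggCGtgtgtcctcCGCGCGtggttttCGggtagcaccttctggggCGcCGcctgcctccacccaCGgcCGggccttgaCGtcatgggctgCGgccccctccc
HBEGF: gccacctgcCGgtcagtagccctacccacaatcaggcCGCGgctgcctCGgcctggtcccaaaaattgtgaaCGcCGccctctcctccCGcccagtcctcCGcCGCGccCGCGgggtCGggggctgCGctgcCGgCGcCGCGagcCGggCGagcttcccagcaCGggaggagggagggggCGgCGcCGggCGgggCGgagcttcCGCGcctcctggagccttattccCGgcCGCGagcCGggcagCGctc

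The 4 windows covered the range of CG content among the members. EPGN had 3 CG pairs and 38.0% G or C, and 10.1% of the 17093 upstream windows of the table had fewer CG pairs. HBEGF had 33 CG pairs and 76.4% G or C, and 89% of windows had fewer, while EREG had 11 and AREG 18, on either side of the median of 17. Of the others, TGFA had 27, EGFR 26, NRG1 22 and BTC 9 CG pairs. The ligand genes that rose thus held both the lowest and the highest CG counts of the members, with NRG1 and EREG between them. The letters TATAAA, searched on both strands, were found 1 time each in the EPGN and EREG windows and in 7.42% of all windows. The cyclic AMP response element letters TGACGTCA were found 1 time in the AREG window and in 1.99% of all windows, and the AP-1 letters TGANTCA were in no member's window and in 4.58% of all windows. These matches describe the letters of the windows only. Whether transcription in these cells begins at the deposited starts was not tested.

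Library totals ranged from 17602570 to 22277442 counts in vehicle and from 8792127 to 21410849 in guadecitabine, with guadecitabine replicate 2 the smallest. Vehicle replicate 3 stood apart, since 20 transcripts had a count of 0 there against 1593 to 2517 in the other libraries. Over the 2782 transcripts that the other vehicle libraries held at 1 count or less, its median was 7.78 counts per kb of exon. Among low-count genes, results without vehicle replicate 3 are therefore also given for EPGN, BTC, CXCL5, CXCL6, PARM1, NRG2, ERBB3 and GAB1. The 5 mesenchymal markers summed to 52367 to 53716 normalized reads per kb in vehicle and 56066 to 65320 in guadecitabine, mostly from VIM. By the edgeR test VIM and CD44 rose (log2 fold changes 0.33 and 1.18), AXL and CAV1 fell (-1.27 and -1.19) and ZEB1 did not pass. The luminal markers summed to 11047 to 12709 and 7241 to 9190, mostly from KRT8. KRT8, EPCAM and CDH1 fell and GATA3 rose, by 0.83 on the log2 scale, while the hormone receptor genes ESR1 and PGR had at most 1 count in every library but vehicle replicate 3, with 67 and 43 counts there. The 5 leukocyte markers found in the table summed to 1600 to 1797 in vehicle and 3956 to 4130 in guadecitabine, mostly from CD68, a lysosomal protein gene, and the leukocyte gene PTPRC had at most 3 counts outside vehicle replicate 3, with 36 there. The summed level was 12.3 to 26.4 and 20.3 to 25.6 for the endothelial markers, and 20.4 to 27.9 and 82.8 to 114 for the 2 erythroid markers found. The part of these marker shifts in the results below was not tested.

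HBEGF, EREG, NRG1 and EPGN rose after guadecitabine, TGFA fell, and EGFR, AREG and BTC did not pass the test. Counts were compared with edgeR's quasi-likelihood test over 13322 genes, with a Benjamini-Hochberg adjusted p under 0.05 as the threshold. Of the 8 members, all tested, 4 were higher, where 19.3% of all genes tested were higher, and 1 was lower, where 18.4% of all genes were. Their median log2 fold change was 0.80, against 0.02 over all genes tested. The libraries of the groups did not overlap for 5 members with guadecitabine higher and for 1 with guadecitabine lower, shares to be read against 26.7% and 24.9% of all genes. For each of these 6 an exact permutation test, two-sided, had p = 0.1, the smallest that 3 against 3 libraries allow, or 0.133 after adjustment over the 8 members. Values below are normalized counts, scaled to the mean library total of 17911210. In bulk RNA, fewer cells with a transcript and less of it per cell cannot be told apart.

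**Figure D1:**
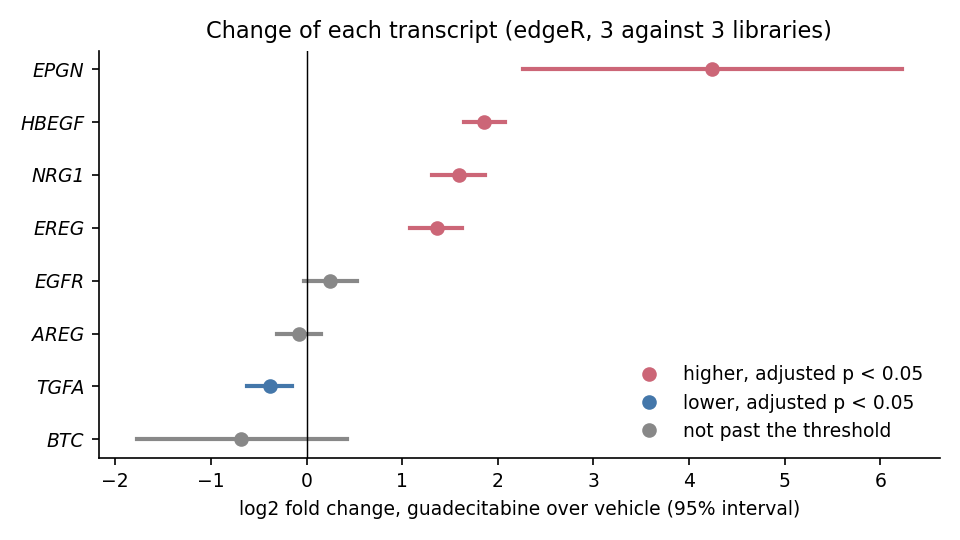
Change of each of the 8 transcripts as the log2 fold change of guadecitabine over vehicle (horizontal axis), with bars for the 95% interval of the edgeR fit and colours for the outcome of the test. The intervals of EPGN, HBEGF, NRG1 and EREG lie above 0, that of TGFA below 0, and those of EGFR, AREG and BTC cross it.

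EGFR, the receptor, lies at chr7:55086725-55275031 on the plus strand, with 5414 bp of exon counted. Its normalized counts were 1619, 1305 and 1710 in the vehicle libraries and 1924, 1851 and 1736 in the guadecitabine libraries. All guadecitabine values were above all vehicle values, but the highest vehicle and lowest guadecitabine libraries nearly met. The mean was 1545 ± 213 (SD, n = 3) in vehicle and 1837 ± 95.2 in guadecitabine, a log2 fold change of 0.25 with a standard error of 0.124. This did not pass the threshold (edgeR adjusted p = 0.148), and the 95% interval ran from -0.03 to 0.53, so that a rise of this size or a change near 0 could not be told apart. Over the alternatives run, the adjusted p stayed between 0.0674 and 0.452. The EGFR exons share 186 bp with the antisense gene EGFR-AS1, and the strand setting of the counting is not given in the sources used here, so reads of the pair cannot be told apart there.

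The 3 genes whose log2 values over the 6 libraries lay nearest to those of EGFR, after centring each gene on its mean, were AKIRIN2, LOH12CR1 and MEAF6. Their distances were 0.101, 0.109 and 0.12, against a median of 0.713 over the 10445 genes compared. Their log2 fold changes were 0.24, 0.33 and 0.23, and like EGFR none of the 3 passed the threshold (edgeR adjusted p = 0.134, 0.168 and 0.123). The distance was taken over these same 6 libraries, so fold changes near that of EGFR follow from the choice and are no further result.

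HBEGF encodes heparin-binding EGF-like growth factor, a ligand of EGFR and ERBB4, and lies at chr5:139712428-139726188 on the minus strand. Its normalized counts were 1880, 1814 and 1858 in vehicle and 6453, 6829 and 6919 in guadecitabine. The replicates of each group lay close together, and the groups were far apart. The mean rose from 1851 ± 34 to 6734 ± 247 (SD, n = 3), 3.63-fold. The log2 fold change was 1.86 with a standard error of 0.0939 and a 95% interval of 1.65 to 2.07 (edgeR adjusted p = 1.57e-06). Of the members, HBEGF had the smallest adjusted p, and the call was kept in 13 of 13 alternatives.

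EREG encodes epiregulin, which also binds EGFR and ERBB4, and lies at chr4:75230860-75254477 on the plus strand. Its normalized counts were 598, 536 and 508 in vehicle and 1588, 1290 and 1330 in guadecitabine. The groups did not overlap, and guadecitabine replicate 1 was the highest library. The mean rose from 547 ± 46 to 1403 ± 162, 2.56-fold, with a log2 fold change of 1.36, a standard error of 0.122 and an interval of 1.08 to 1.63 (edgeR adjusted p = 4.73e-05). The call was kept in 13 of 13 alternatives.

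EPGN encodes epigen, a low-affinity ligand of EGFR, and lies at chr4:75174187-75182520 on the plus strand. Its raw counts were 1, 0 and 11 in the vehicle libraries and 107, 38 and 37 in the guadecitabine libraries. Transcripts were at the floor of detection, 3 counts in a library, in vehicle replicates 1 and 2 and well above it in all treated libraries. The background of vehicle replicate 3 would give 19.6 counts over the 2515 bp of EPGN exon, more than the 11 observed there. The fitted log2 fold change was 4.24 with a standard error of 0.877 (edgeR adjusted p = 0.00506), and it was 6.72 without vehicle replicate 3 (adjusted p = 8.78e-05). A fitted value this near 0 counts depends on the prior count. With vehicle replicates 1 and 2 placed at the floor, the mean of the treated libraries was at least 22-fold higher. This value leaves out vehicle replicate 3 and the spread of the treated libraries, at 86.6, 77.3 and 37.3 normalized counts.

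NRG1 encodes neuregulin 1 and lies at chr8:31497268-32600770 on the plus strand. Its normalized counts were 355, 312 and 412 in vehicle and 1067, 1072 and 1122 in guadecitabine. The treated libraries agreed closely and all lay above the vehicle libraries. The mean rose from 360 ± 49.9 to 1087 ± 30.6, 3.01-fold, with a log2 fold change of 1.59, a standard error of 0.124 and an interval of 1.31 to 1.87 (edgeR adjusted p = 2.03e-05). The gene has many transcript forms, and the deposited row counts the 1986 bp of exon of a single one.

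TGFA encodes transforming growth factor alpha, a ligand of EGFR, and lies at chr2:70674412-70781147 on the minus strand. Its normalized counts were 2216, 1954 and 1975 in vehicle and 1663, 1532 and 1518 in guadecitabine. The treated libraries were the lower ones without overlap. The mean fell from 2048 ± 145 to 1571 ± 80.2, and the log2 fold change was -0.38 with a standard error of 0.103 and an interval of -0.62 to -0.15 (edgeR adjusted p = 0.0171). This call was lost without vehicle replicate 1 (log2 fold change -0.32, adjusted p = 0.0937), without guadecitabine replicate 3 (-0.36, adjusted p = 0.0834) and without the filter on low counts (-0.37, adjusted p = 0.052).

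AREG encodes amphiregulin, another EGFR ligand, and lies at chr4:75310815-75320726 on the plus strand. Its normalized counts were 966, 952 and 985 in vehicle and 840, 948 and 967 in guadecitabine. The groups overlapped, and only guadecitabine replicate 1 lay clearly below the rest. The means were 968 ± 16.7 and 918 ± 68.4, a log2 fold change of -0.08 with a 95% interval of -0.31 to 0.15 (edgeR adjusted p = 0.571). Counts of this gene are uncertain, because 32 of its 940 exon stretches of 50 bases, or 3.4%, are unique in GRCh37. The other 908 also occur at chr4:75480629-75490481, in the copy that GENCODE names AREGB, which was not analysed here. How reads that match both copies were counted is not given in the sources used here.

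BTC encodes betacellulin, a ligand of EGFR and ERBB4, and lies at chr4:75671448-75719882 on the minus strand. Its raw counts were 24, 32 and 45 in vehicle and 25, 12 and 13 in guadecitabine. After normalization the values were 22.9, 33.8 and 34.6 against 20.2, 24.4 and 13.1, and the groups overlapped. The log2 fold change was -0.68 with a standard error of 0.485 (edgeR adjusted p = 0.302). At this depth the interval of -1.77 to 0.42 did not separate a fall from no change. Without vehicle replicate 3 the log2 fold change was -0.60 (edgeR adjusted p = 0.205).

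To compare levels between genes, normalized counts were divided by the exon length in kb. That length is of the single deposited transcript of each gene, so the order of genes in both groups depends on it. The place of AREG also carries the uncertainty of its counts. In vehicle, HBEGF was at 785 ± 14.4 (SD, n = 3) and AREG at 759 ± 13.1 normalized reads per kb, and the libraries of this pair overlapped. TGFA followed at 475 ± 33.7, EGFR at 285 ± 39.3, NRG1 at 181 ± 25.1, EREG at 118 ± 9.93, BTC at 23 ± 4.96 and EPGN at 1.25 ± 1.84, each separated from its neighbour in all libraries. EGFR thus stood in the middle of the 7 ligands in vehicle. By the mean level per length over all 6 libraries, treated ones included, EGFR was at the percentile 73.5 of all transcripts in the table. HBEGF was at 94.2 by the same mean.

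After guadecitabine the order changed. HBEGF reached 2856 ± 105 normalized reads per kb, followed by AREG at 720 ± 53.6 and NRG1 at 547 ± 15.4, which had moved past TGFA and EGFR. TGFA at 364 ± 18.6 overlapped with EGFR at 339 ± 17.6, and EGFR with EREG at 303 ± 34.9. EPGN at 26.7 ± 10.4 and BTC at 14.6 ± 4.32 also overlapped, at the low end of the order. The receptor therefore lay above NRG1 and EREG in vehicle, and below NRG1 and level with EREG after treatment.

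**Figure D2:**
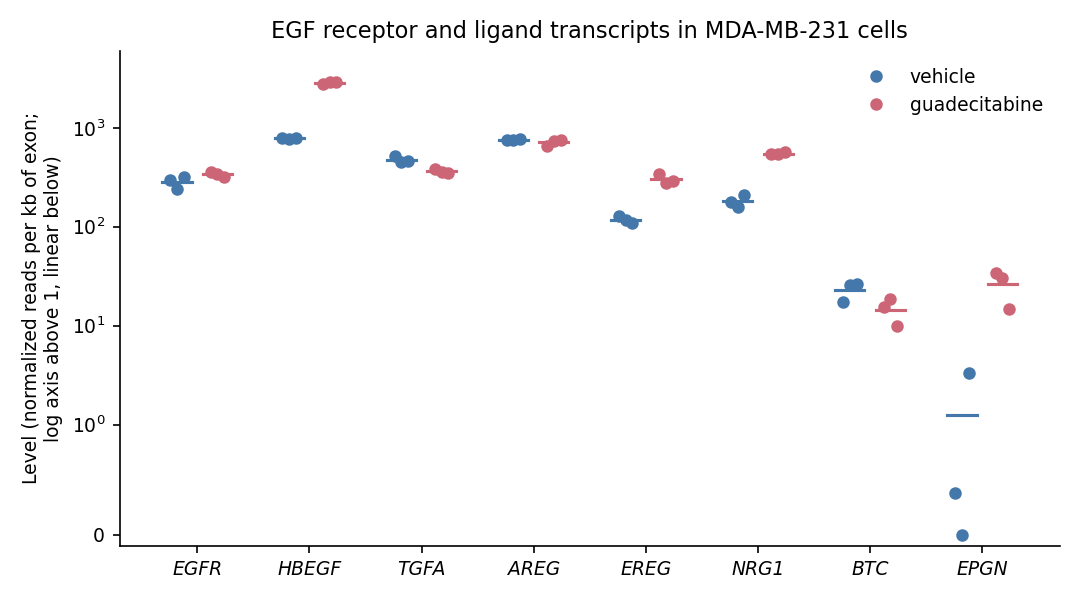
Level of each transcript in normalized reads per kb of exon (vertical axis, logarithmic above 1 and linear below), with a point for each of the 6 libraries and a line at the mean of each group. HBEGF, EREG, NRG1 and EPGN show separated groups with guadecitabine above, TGFA shows guadecitabine below, and AREG and BTC overlap.

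The make-up of the ligand transcripts was followed within each library, where the scaling between libraries cancels. HBEGF took 33.3%, 33.9% and 33.3% of the summed reads per kb of the 7 ligands in vehicle and 58.1%, 59.6% and 59.6% in guadecitabine. AREG went from a share of 32.4% ± 0.678 (SD, n = 3) to 14.9% ± 0.789, although its own level did not pass the test, and TGFA went from 20.3% ± 1.07 to 7.55% ± 0.559. NRG1 went from 7.73% ± 0.943 to 11.3% ± 0.2, EREG from 5.05% ± 0.381 to 6.28% ± 0.866 and EPGN from 0.0526% ± 0.0779 to 0.555% ± 0.225. BTC went from 0.984% ± 0.228 to 0.302% ± 0.0912. HBEGF and AREG were thus near equal in vehicle, and HBEGF alone made up the larger part of the ligand transcripts after treatment. The AREG shares carry the uncertainty of its counts. The shares of the other ligands, HBEGF included, carry it too, because AREG is part of the sum.

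**Figure D3:**
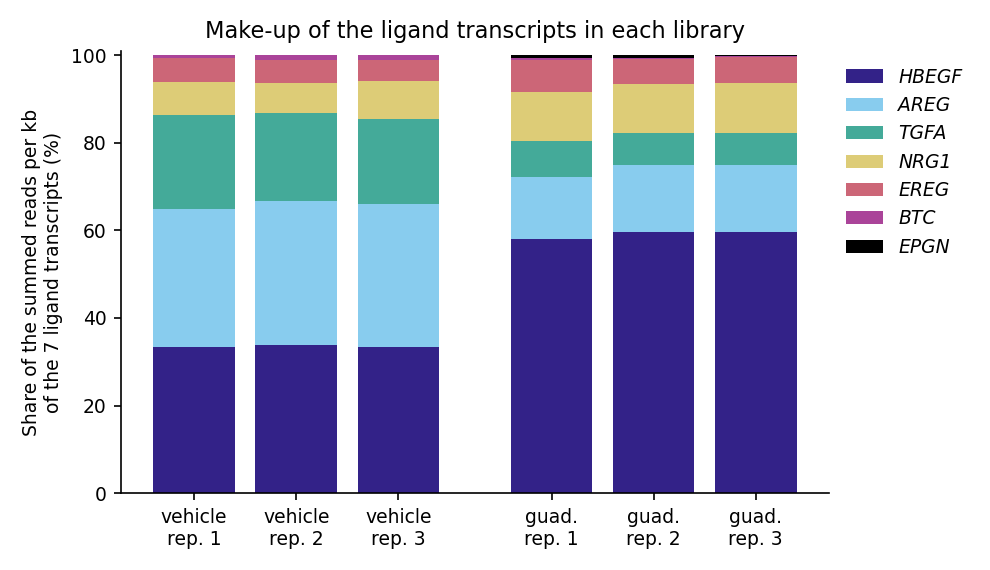
Share of each ligand in the summed normalized reads per kb of the 7 ligand transcripts (vertical axis, percent), with a bar for each vehicle and guadecitabine (guad.) library. HBEGF goes from 33.3% to 33.9% of the sum in the vehicle libraries to 58.1% to 59.6% in the guadecitabine libraries, while the shares of AREG and TGFA are smaller.

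The summed level of the 7 ligands was 2395, 2268 and 2365 normalized reads per kb in vehicle and 4711, 4862 and 4921 in guadecitabine. This sum includes NRG1, which binds ERBB3 and ERBB4 instead of EGFR, and AREG with its uncertain counts. Ratios of single genes were also formed within each library. The ratio of HBEGF to TGFA was 1.55, 1.7 and 1.72 in vehicle and 7.09, 8.15 and 8.33 in guadecitabine, and that of HBEGF to EGFR was 2.67, 3.19 and 2.49 against 7.7, 8.47 and 9.15. The ratio of EREG to its neighbour AREG was 0.171, 0.155 and 0.142 against 0.521, 0.375 and 0.379, again with AREG counts uncertain. HBEGF was thus higher relative to the receptor transcript in every treated library than in any vehicle library. The ratio of HBEGF to EREG was also higher, at 6.17, 6.64 and 7.18 against 7.98, 10.4 and 10.2, whereas the ratio of NRG1 to EREG overlapped between the groups. Of the 15 shares, sums and ratios compared by exact permutation, two-sided, all but the ratio of NRG1 to EREG had p = 0.1 (0.107 after adjustment), again the smallest possible, and that ratio had p = 0.2 in the same exact test.

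EPGN, EREG, AREG and BTC lie in a row on chromosome 4, within 545696 bp. EPGN ends 48339 bp before EREG, EREG 56337 bp before AREG, and AREG 350721 bp before BTC. The first pair of this row rose and the second pair did not pass the test. The neighbours EREG and AREG, 56337 bp apart, thus had different calls, with AREG counts uncertain because of its copy. BTC had low counts, and its interval did not separate a fall from no change. The interval from 500 kb before EPGN to 500 kb after BTC held 14 genes of the table, of which 11 were tested, 7 were higher and 0 were lower by the edgeR test, EPGN and EREG among them. With the 4 ligand genes set aside, 10 genes remained, of which 7 were tested, 5 were higher and 0 lower, where 19.3% of all genes tested were higher and 18.4% lower.

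On the side of EPGN, the chemokine genes CXCL6, CXCL1, CXCL5, CXCL3 and CXCL2, whose products attract neutrophils, all rose. Raw counts of CXCL1 were 148, 141 and 238 in vehicle and 18081, 7804 and 16033 in guadecitabine, and its log2 fold change was 6.62 (edgeR adjusted p = 2.17e-08). The fitted log2 fold changes were 8.84 for CXCL5, 5.83 for CXCL6, 4.92 for CXCL3 and 4.37 for CXCL2, with the adjusted p of CXCL6, 0.000427, the highest of the 5. CXCL5 had 3, 0 and 20 vehicle counts and CXCL6 had 0, 0 and 6, so their fitted values depend on the prior count, and without vehicle replicate 3 they were 10.94 and 9.64. Between the chemokine genes and EPGN lies MTHFD2L, a mitochondrial folate enzyme gene that ends 5372 bp before EPGN, and its log2 fold change was 0.03 (adjusted p = 0.92). A gene that did not pass the test thus lay between the chemokine genes and EPGN, all of which rose. PARM1, 138402 bp beyond BTC, was at a log2 fold change of 0.73 (edgeR adjusted p = 0.126) and stayed short of the threshold in 11 of 13 alternatives. Its adjusted p ran from 0.041 to 0.322 over the alternatives, and was 0.0489 without vehicle replicate 3 (log2 fold change 0.83). PF4V1, PF4 and PPBP had too few counts to be tested.

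**Figure D4:**
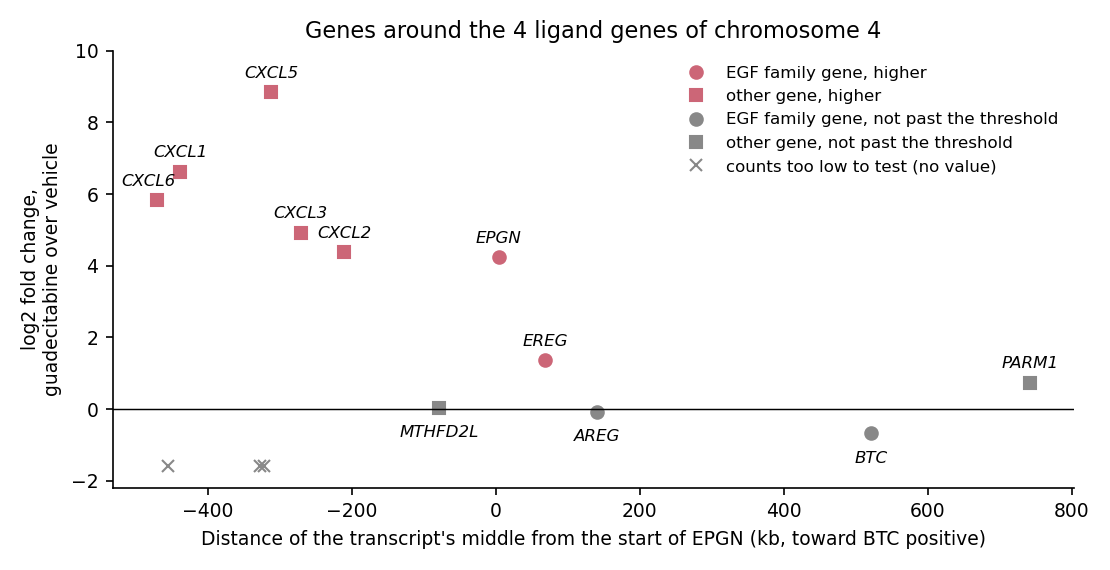
Log2 fold change of guadecitabine over vehicle (vertical axis) against the distance of each transcript's middle from the start of EPGN in kb (horizontal axis), for the 14 genes of the interval; circles are ligand genes, squares other genes, and crosses genes with too few counts. CXCL5, CXCL1, CXCL6, CXCL3, CXCL2, EPGN and EREG are in the colour of genes that rose, with MTHFD2L at 0.03 between CXCL2 and EPGN.

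Genes that act with the receptor and its ligands changed in both directions. Of 88 listed genes of the pathway, 85 were tested, 18 were higher (21.2%) and 19 lower (22.4%), near the 19.3% and 18.4% of all genes, and their median log2 fold change was -0.01. The count of higher genes was 10 without vehicle replicate 1 and 9 without guadecitabine replicate 3. Among the other ligands, NRG2, a neuregulin, had 59, 40 and 165 counts in vehicle and 15, 10 and 9 in guadecitabine. It fell by 2.51 on the log2 scale (edgeR adjusted p = 0.00626). Without vehicle replicate 3, which held its highest count, it still passed, at a log2 fold change of -1.94 (adjusted p = 0.00145). EGF had 40, 45 and 64 counts against 59, 20 and 48, a log2 fold change of 0.03 that did not pass (adjusted p = 0.958). NRG3 and NRG4 had too few counts to be tested, at most 3 in each library other than vehicle replicate 3.

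Of the other receptors, ERBB2, the preferred partner of the ligand-bound receptors, had normalized counts of 1800, 1797 and 1517 in vehicle and 948, 1123 and 1008 in guadecitabine. The groups did not overlap, and the log2 fold change was -0.74 with a standard error of 0.117 (edgeR adjusted p = 0.00122). ERBB3, which binds NRG1, was low in all libraries, at 75.2, 83.4 and 121 against 59.9, 57 and 76.7, and did not pass (log2 fold change -0.53, adjusted p = 0.152). Without vehicle replicate 3 its log2 fold change was -0.28 (edgeR adjusted p = 0.33). ERBB4 had 3, 0 and 55 counts in vehicle and 1, 0 and 0 in guadecitabine and was not tested. Of the receptors of NRG1, then, ERBB3 was measured at a low level and ERBB4 was at or below the floor outside vehicle replicate 3.

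Of the 11 sheddases and their carriers, which release the ligands, 2 were higher, 2 lower and 7 did not pass, near the 19.3% of all genes that were higher and the 18.4% that were lower, with a median log2 fold change of -0.13 against 0.02 over all genes. FRMD8, a partner of the iRhom proteins that carry ADAM17, rose by 0.85 on the log2 scale (edgeR adjusted p = 0.00625). RHBDF2, an iRhom gene, rose by 0.33 (adjusted p = 0.0447), a call kept in 4 of 13 alternatives. The sheddase gene ADAM10 fell by 0.66 on the log2 scale (adjusted p = 0.00488) and ADAM9 fell by 0.49 on that scale (adjusted p = 0.0228), the latter kept in 9 of 13 alternatives. ADAM17, the main sheddase of HBEGF, TGFA, AREG and EREG, was at 493, 507 and 499 normalized counts in vehicle and 740, 539 and 633 in guadecitabine, and its log2 fold change of 0.36 did not pass (adjusted p = 0.0533). ADAM17, named for this role after its values were seen, passed in 3 alternatives, with the size factors of DESeq2 (adjusted p = 0.0466), with at least 10 counts in every library (0.0473) and without guadecitabine replicate 2 (0.0151). Leaving out vehicle replicate 1 or 2 or guadecitabine replicate 3 reduced both counts to 1, leaving out vehicle replicate 3 reduced the higher count to 1, and leaving out guadecitabine replicate 2 the lower count to 1.

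Of 25 adaptors and signal carriers, 6 were higher, near the 19.3% of all genes, 2 were lower, below the 18.4% of all genes, and 17 did not pass, with a median log2 fold change of 0.09 against 0.02. SRC, a tyrosine kinase, rose from 1339, 1259 and 922 normalized counts in vehicle to 2783, 3721 and 3320 in guadecitabine, a log2 fold change of 1.48 (edgeR adjusted p = 0.000159). SHC1, an adaptor that binds the activated receptor, rose by 0.77 on the log2 scale (adjusted p = 0.000566). The docking protein gene GAB1 was lower by a log2 fold change of -1.0 (adjusted p = 0.0124) and the kinase gene ARAF by one of -0.33 (adjusted p = 0.0319), the latter kept in 7 of 13 alternatives. Without vehicle replicate 3, GAB1 was at -0.80 (edgeR adjusted p = 0.0185). The count of higher genes was 3 without vehicle replicate 1 or 2 or guadecitabine replicate 3, and that of lower genes was 1 without vehicle replicate 1 or 2 or guadecitabine replicate 1 or 3.

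Of 19 inhibitors of the receptor or of ERK signalling, 4 were higher, 8 lower and 7 did not pass, where 19.3% of all genes were higher and 18.4% lower. The list had a median log2 fold change of -0.44 against 0.02 over all genes. SPRY1, a Sprouty inhibitor, fell from 743, 672 and 786 normalized counts in vehicle to 143, 146 and 113 in guadecitabine, a log2 fold change of -2.46 with a standard error of 0.138 (edgeR adjusted p = 2.74e-06). DUSP4, an ERK phosphatase, fell by 1.02 on the log2 scale (adjusted p = 6.62e-05). SPRY2, SPRY4 and DUSP6, named after their values were seen, were also lower, at -0.77, -0.82 and -0.69. The remaining lower genes were ERRFI1, PTPN1 and RASA1, at -0.45, -0.59 and -0.74, likewise named after their values were seen. In the other direction, LRIG1, a membrane protein that promotes degradation of EGFR, rose by 1.34 on the log2 scale (adjusted p = 4.01e-05), and DUSP5, a nuclear ERK phosphatase, rose by 0.89 (adjusted p = 0.000163). The other higher genes were CBL and SOCS4, named after their values were seen. Inhibitors of the same kind, such as DUSP4 and DUSP5, thus moved in opposite directions.

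Of 12 transcripts known to respond to ERK, 3 were higher, 5 lower and 4 did not pass, where 19.3% of all genes were higher and 18.4% lower. The list had a median log2 fold change of -0.26 against 0.02 over all genes. IER3, an immediate early gene, rose from 10715, 10305 and 9775 normalized counts in vehicle to 40157, 41637 and 43786 in guadecitabine, a log2 fold change of 2.03 (edgeR adjusted p = 7.68e-07). PLAUR, the urokinase receptor gene, rose by 1.17 on the log2 scale (adjusted p = 2.92e-05). CCND1, the cyclin D1 gene, fell by 0.72 on the log2 scale (adjusted p = 0.000486) and the ephrin receptor gene EPHA4 fell by 1.19 on that scale (adjusted p = 0.00161). The remaining higher gene was LIF, and the remaining lower genes were ETV5, HMGA2 and PHLDA1, all named after their values were seen. The count of lower genes was 2 without vehicle replicate 1 and 3 without vehicle replicate 2 or guadecitabine replicate 3.

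Of 14 genes of receptor endocytosis and recycling, 3 were higher, 0 lower and 11 did not pass by the edgeR test, where 19.3% of all genes were higher and 18.4% lower. The list had a median log2 fold change of 0.21 against 0.02 over all genes. STAM and STAM2, which sort ubiquitinated receptors on endosomes, had log2 fold changes of 0.43 (edgeR adjusted p = 0.0113) and 0.54 (adjusted p = 0.0197). The third was TSG101, named after its values were seen, at 0.29 (adjusted p = 0.0476), a call kept in 5 of 13 alternatives. STAM and STAM2 each lost the call in 2 of 13 alternatives, and the count of higher genes was 0 without vehicle replicate 1 or guadecitabine replicate 3. HGS, named after its values were seen, was at -0.32 (adjusted p = 0.0948) and was called lower without vehicle replicate 3 or with its background subtracted.

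**Figure D5:**
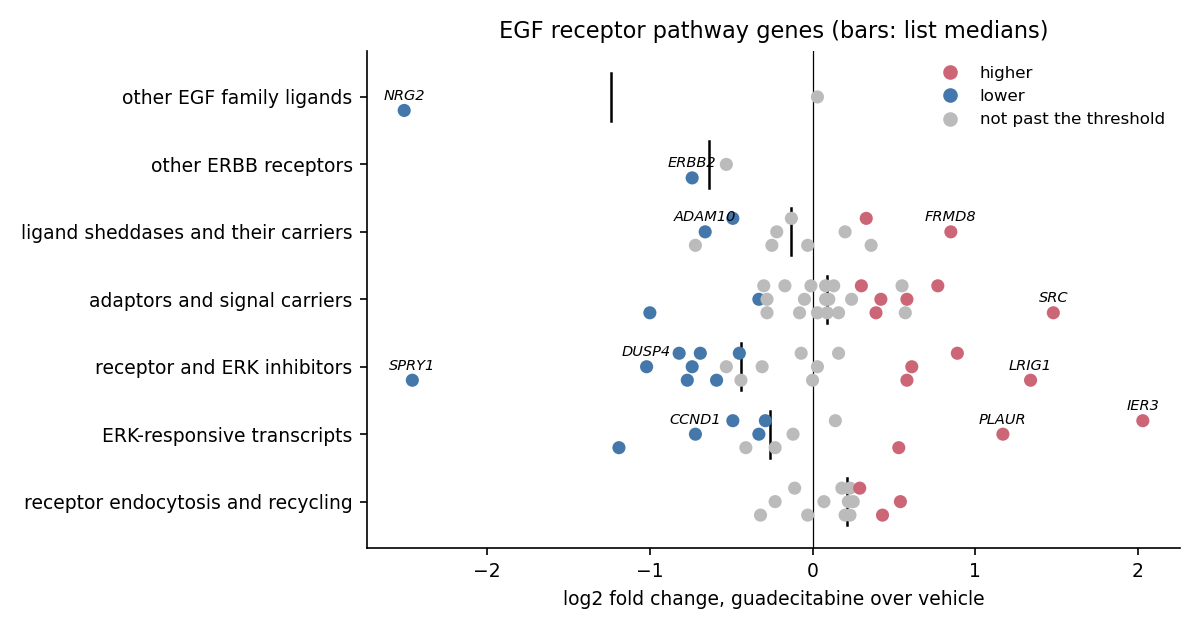
Log2 fold change of guadecitabine over vehicle (horizontal axis) for the tested genes of 7 lists of the pathway (rows), with a point for each gene, colours for the outcome of the edgeR test and a bar at the median of each list. The lists of sheddases, adaptors, inhibitors and ERK-responsive transcripts each hold genes called higher, above 0, and genes called lower, below 0. SPRY1 at -2.46 and IER3 at 2.03 lie at the ends of their lists.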

How the data were processed

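RNA sequencing libraries of MDA-MB-231 cells, 3 from vehicle and 3 from guadecitabine cultures, were grouped by their labels. The authors deposited raw read counts of exons for 1 RefSeq transcript a gene, with the exon length, made with the iRNA-seq pipeline, and the submitters' processing notes name STAR 2.3.1z, hg19 and DESeq2. The log2 values of the regularized log transformation that the authors deposited, and the log2 fold changes, p-values and test scores of their own comparison, were not used. The test was that of edgeR 4.0.16 under R 4.3.3 (TMM, filterByExpr with a minimum count of 10, quasi-likelihood test, Benjamini-Hochberg adjustment), a procedure checked on simulated data. Standard errors were derived from the F statistic. Alternatives were a replicate block, DESeq2 1.42.0, its size factors, library totals, 2 other filters, subtraction of the background of vehicle replicate 3, and leaving out each library. Depth was 8792127 to 22277442 counts a library, and the floor of 3 counts covers counting error only.

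The members and gene lists were chosen with earlier results of these data known. Named are all members, in each list up to 2 genes with the smallest adjusted p in each direction, all genes of the short lists of other ligands and receptors, all genes of the chromosome 4 interval, and the 3 genes nearest to EGFR by Euclidean distance of mean-centred log2 CPM, among genes with a mean count of at least 100. Other genes are marked in the text as named after their values were seen. The deposited start was a GENCODE start for 7171 transcripts after 1 was added and for 852 without it, and 1 was added to all. Sequence was read from GRCh37 with Python 3.11.15.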

Additional observations from a re-analysis of the deposited data

How the results depend on the processing

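HBEGF, EREG and NRG1 kept their rise in 13 of 13 alternatives and EPGN in 12 of 12, since a filter of at least 10 counts in every library removed it, with CXCL5, CXCL6 and NRG2. EGFR, AREG and BTC stayed short of the threshold in 13 of 13. The count of lower members was 0 without the filter on low counts and ranged from 0 to 1 when single libraries were left out, because TGFA lost its call: its log2 fold change was -0.37 (edgeR adjusted p = 0.052) without the filter and ranged from -0.43 to -0.32 with single libraries left out. Leaving out single libraries gave 1706 to 3002 higher and 1629 to 2575 lower genes, and 9 to 18 higher genes of the pathway lists, with the lowest counts without guadecitabine replicate 3. With single libraries left out, EGF ranged from -0.08 to 0.12 and MTHFD2L from -0.12 to 0.12 on the log2 scale, and EGF was at 0.42 with the background of vehicle replicate 3 subtracted; neither passed the threshold in any alternative. Counts near 0, as in EPGN, limit the precision of its fold change.

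The replicate numbers of the labels did not pair the libraries: deviations of same-numbered libraries correlated at -0.0499, 0.0492 and -0.0366 over genes, and those of other pairs at -0.0613 to 0.0629. With a replicate block, 2424 genes were higher and 2230 lower, against 2576 and 2446, and 4 members were higher and 1 lower as before.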
